A study of Mus musculus with 3 samples.

Results

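The hyaluronan, versican and adhesive matrix genes are 8 genes that make, bind or fill the pericellular matrix: the hyaluronan synthases Has1, Has2 and Has3, the proteoglycan gene Vcan, the hyaluronan receptor gene Cd44, and the glycoprotein genes Fn1, Tnc and Postn. They were taken by name from the 32285 genes counted in single cells of the mouse secondary palate. The choice was made with earlier results of these data known. RNA was counted in droplets, and a count is a number of unique molecular identifiers (UMIs), the random tags that mark captured RNA molecules. Each of the 3 libraries held palatal shelves pooled from 3 wild-type C57BL/6J embryos, with 1 library each for the stages E13.5, E14.5 and E15.5, which count days of embryonic life. Shelf tissue was dissociated with the enzyme TrypLE, and the cells were fixed in methanol and frozen. No mutant, transgene or treatment is part of these libraries. There are no replicates, so no test was run. Intervals are 95% intervals that cover counting error only, and a difference between stages cannot be told apart from a difference between the pools of embryos or the libraries.

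Hyaluronan is a very long unbranched sugar polymer that synthases in the cell membrane spin directly into the extracellular space, where it binds water and swells the matrix. Versican attaches to hyaluronan and carries chondroitin sulphate chains that hold more water, and CD44 tethers hyaluronan to the cell surface and takes it up. Fibronectin is the integrin ligand on which mesenchymal cells spread and migrate, while tenascin-C and periostin are matricellular proteins that modify adhesion and collagen assembly. In the palate, the shelves grow beside the tongue, rise above it and fuse, and swelling of a hyaluronan-rich mesenchymal matrix has long been discussed as a force in their elevation.

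On GRCm38 (mm10) with the GENCODE M21 annotation, the synthase genes lie apart, Has1 at chr17:17843323-17855205, Has2 at chr15:56665627-56694539 and Has3 at chr8:106870242-106884566. Vcan spans chr13:89655312-89742509, Cd44 spans chr2:102811141-102901665 and Fn1 spans chr1:71585520-71653200. Tnc spans chr4:63959785-64047015 and Postn spans chr3:54361109-54391037. Has3 and Postn are on the plus strand and the other 6 on the minus strand. Has3 overlaps Chtf8 on the opposite strand. Counts were summed over whole genes, so the splice forms of Vcan, Cd44, Fn1, Tnc and Postn cannot be told apart.

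The 250 bases before the transcription start are shown for 3 genes whose level changed with stage (Postn, Tnc and Cd44) and for Vcan, which stayed within 1.5-fold. They are from RefSeq on GRCm38.p6, 5′ to 3′ on the gene's own strand, at chr3:54360857-54361106 for Postn, chr4:64046937-64047186 for Tnc, chr2:102901666-102901915 for Cd44 and chr13:89742513-89742762 for Vcan. The RefSeq table held an entry for 5 of the 8 members (Has1 also). Capitals mark TATATAA and TATAAA, the letters of a TATA box, which overlap in Postn.
Postn: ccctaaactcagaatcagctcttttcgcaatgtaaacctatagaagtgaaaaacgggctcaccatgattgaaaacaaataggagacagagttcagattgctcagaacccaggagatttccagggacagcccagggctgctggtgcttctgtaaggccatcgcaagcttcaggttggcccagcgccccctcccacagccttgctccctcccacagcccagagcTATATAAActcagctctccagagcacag
Tnc: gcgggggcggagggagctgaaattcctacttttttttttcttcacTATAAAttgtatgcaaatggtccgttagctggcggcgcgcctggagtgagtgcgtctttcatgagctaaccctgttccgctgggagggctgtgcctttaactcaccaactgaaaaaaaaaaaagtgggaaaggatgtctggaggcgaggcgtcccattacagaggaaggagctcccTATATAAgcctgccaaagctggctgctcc
Cd44: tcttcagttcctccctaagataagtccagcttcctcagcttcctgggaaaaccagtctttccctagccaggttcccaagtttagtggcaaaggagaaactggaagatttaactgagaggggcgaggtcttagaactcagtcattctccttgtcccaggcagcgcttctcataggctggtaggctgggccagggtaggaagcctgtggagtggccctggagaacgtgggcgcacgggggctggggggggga
Vcan: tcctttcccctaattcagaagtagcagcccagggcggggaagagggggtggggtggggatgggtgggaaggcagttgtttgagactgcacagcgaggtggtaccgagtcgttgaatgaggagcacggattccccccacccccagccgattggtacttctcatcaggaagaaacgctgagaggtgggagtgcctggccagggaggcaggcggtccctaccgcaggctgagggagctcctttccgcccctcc
TATATAA began 28 bases before the start in Postn and 29 bases before it in Tnc. Searched on both strands, TATATAA was found in 3.04% of 32851 RefSeq windows of the same length, and TATAAA in 12.4%. The Cd44 and Vcan windows held neither. RefSeq gives Tnc another start at 64047015 and Postn another at 54359267, whose windows lack TATATAA. GENCODE M21 has 2 Postn transcripts that start within 10 bases of the Postn start used here and 0 for the Tnc start used here. It has 1 Tnc transcript at the other start, 64047015, so the Tnc window printed here, chosen for its TATATAA, lies before the start that only RefSeq gives. The E-box letters CANNTG, present in 66.2% of windows, occurred in the Tnc and Vcan windows and not in those of Postn and Cd44. The RUNX core TGTGGT (14.0% of windows) and the AP-1 letters TGANTCA (6.75%) were in none of the 4. These matches describe letters, not bound sites.

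The libraries held 4236, 2079 and 3113 barcodes with 11472663, 5293977 and 8313677 UMIs in order of stage, and 7886 cells were kept. The pairs of libraries shared 3, 1 and 1 barcodes. Cells were grouped into 24 clusters without the members or their pathway genes, and clusters were named from markers, as "X-like", a label that rests on expression. The mesenchymal lineage here joins the clusters named mesenchymal-like, osteogenic-like or chondrogenic-like (655, 1203 and 1757 cells). All 12 mesenchymal markers and all 10 chondrogenic markers reached 20 CPM (a relative abundance, from UMIs summed per class and library and scaled to an equal total) in their class at every stage. Osteogenic markers reached it for 2, 6 and 4 of 10, and the late gene Bglap2 was at 0 throughout. With at least 1000 genes per cell, or with no filter on genes, no cluster was named osteogenic-like. In a coarser clustering (Leiden resolution 0.5) that class held 826 cells, against 562 in the main clustering. Levels of the osteogenic-like class below are from the main clustering. The E13.5 library stands apart: the lineage was 18.4% of its cells, against 68.9% at E14.5 and 68.3% at E15.5, and neuronal-like and neural progenitor-like cells were 66.2%, against 7.74% and 7.15%. Every comparison with E13.5 rests on that library. The 9 neuronal markers together stood at 369, 368 and 271 CPM within the lineage. Other foreign lists moved between E13.5 and the later stages there. The 8 neural progenitor markers summed to 96.0, 25.8 and 19.1 CPM, with 8, 5 and 7 of them detected. The 7 erythroid markers, all detected, summed to 14337, 8889 and 8833 CPM, and the 12 epithelial markers to 39.8, 96.5 and 68.4 CPM, with Krt14, Krt8, Krt19 and Perp at 0 at E13.5. The 9 endothelial markers summed to 33.5, 61.8 and 42.7 CPM, with Tie1 at 0 at E13.5. Their part in the stage differences was not tested.

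In the mesenchymal lineage, Has2, Cd44, Tnc and Postn were above their E13.5 level at the next stage by 2.18-fold to 4.01-fold, and E15.5 was also above E13.5. Vcan and Fn1 kept within 1.5-fold throughout, and Has1 and Has3 were close to undetected. A gene was called where the ratio of CPM + 1 reached 1.5-fold and its mean over the libraries was at least 5 CPM, which 6 of the 8 members passed. Between E13.5 and E14.5, 4 of these were higher and 0 lower, where 19.3% of 11523 genes were called higher and 12.4% lower. Between E14.5 and E15.5 the count was 0 both ways (4.44% of genes higher, 5.29% lower). From E13.5 to E15.5 it was 4 higher and 0 lower (21.3% and 16.3%). The median log2 ratio of the 6 genes was 1.36, 0.13 and 1.26 in the 3 comparisons, and that of all genes 0.04, -0.01 and 0.01. The comparisons share libraries and are not independent.

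**Figure D1:**
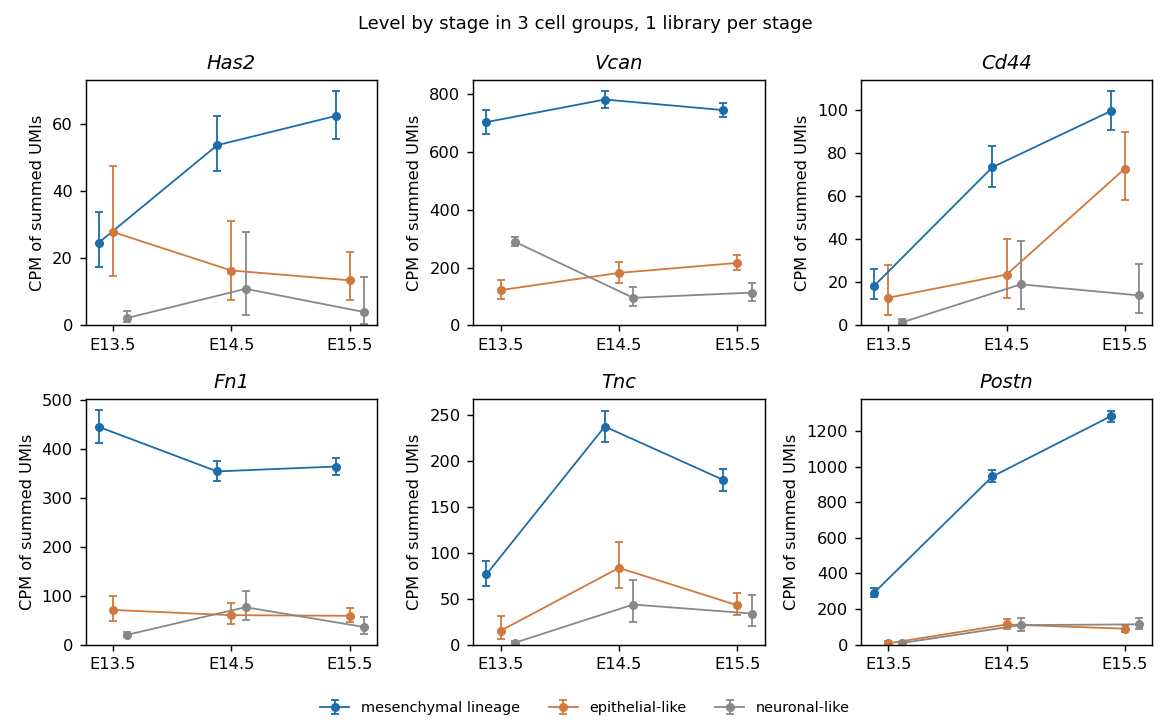
Level of 6 members in CPM of summed UMIs (vertical axis, linear, from 0) at each stage, in the mesenchymal lineage, epithelial-like cells and neuronal-like cells. Bars are 95% Poisson intervals of 1 library each. In the lineage Has2, Cd44, Tnc and Postn were lowest at E13.5, while Vcan stayed between 704 and 782 CPM.

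Has2, the main hyaluronan synthase of embryonic mesenchyme, gave 39, 173 and 310 UMIs in the lineage in order of stage. These are 24.6 CPM (17.5 to 33.7), 53.7 CPM (46.0 to 62.3) and 62.4 CPM (55.6 to 69.7). The E13.5 library was low and its interval did not overlap the later ones, which overlapped each other. The first step, to E14.5, was 2.18-fold (1.53 to 3.17), and the second, to E15.5, was 1.16-fold (0.962 to 1.41). With the mix of lineage clusters held fixed, the first step was 0.67 on the log2 scale in place of 1.09. That setting used the 4 lineage clusters seen at all stages, which hold 92.8%, 37.8% and 26.5% of lineage cells. The antisense gene Has2os, which overlaps Has2 on the opposite strand, stood at 7.58, 37.9 and 47.7 CPM, so both genes were lowest at E13.5. Whether reads were assigned by strand is not given in the sources used here, so reads of Has2 and Has2os may not be fully separated.

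Has2 differed among lineage classes. At E14.5 and E15.5 it stood at 65.2 and 71.5 CPM in mesenchymal-like cells and at 29.4 and 29.2 CPM in osteogenic-like cells, 0.451-fold (0.293 to 0.674) and 0.408-fold (0.272 to 0.593) of the mesenchymal-like level. Chondrogenic-like cells, with 62.3 and 68.7 CPM, were not distinguishable from mesenchymal-like cells. Within the lineage the highest level was in cluster 21, led by Cntn6, Tfap2b and Msx1, with 121 CPM at E14.5 and 105 CPM at E15.5. That was 4.10-fold (2.48 to 6.86) over the osteogenic-like cluster at E14.5. The lowest cluster at E15.5 was cluster 2, led by Aldh1a2 and Otor, with 25.1 CPM on 5 UMIs.

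Has1 and Has3, the other synthases, were near the limit of detection. Has1 gave 6, 1 and 11 UMIs in the lineage, and Has3 gave 0, 2 and 2. The count of 0 allows up to 1.90 CPM. Over all kept cells Has1 had 23 UMIs and Has3 had 31. In epithelial-like cells Has3 gave 0, 3 and 5 UMIs, and all 8 of them fell in cluster 14, the stratified-type epithelium led by Krtdap, Krt13 and Krt5. At E13.5, 10 Has3 UMIs were in neuronal-like cells and 8 in a cluster left unnamed, which carries neuronal and globin genes. No fold was drawn from these counts.

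Vcan, the large hyaluronan-binding proteoglycan, gave 1114, 2520 and 3703 UMIs in the lineage. Its level was 704 CPM (663 to 746) at E13.5, 782 CPM (752 to 813) at E14.5 and 745 CPM (722 to 770) at E15.5. The 3 levels differed little, and E15.5 stood at 1.06-fold (0.990 to 1.13) of E13.5. With the cluster mix held fixed, the first step was -0.24 on the log2 scale in place of 0.15, and its sign was negative in each of the 4 clusters compared.

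Vcan was distributed unevenly within the lineage. Osteogenic-like cells had the highest class level, 984 CPM at E14.5 and 1010 CPM at E15.5, which was 1.38-fold (1.28 to 1.50) and 1.48-fold (1.37 to 1.59) the level of mesenchymal-like cells. Chondrogenic-like cells had 616, 399 and 335 CPM, and at E15.5 stood at 0.490-fold (0.348 to 0.672) of mesenchymal-like cells. Cluster 21 had 1025 and 970 CPM at the later stages. Cluster 2 had 1006 CPM at E13.5 and 698 CPM at E15.5. Outside the lineage, neuronal-like cells had 289 CPM at E13.5 and 95.3 and 113 CPM at the later stages.

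Cd44, the hyaluronan receptor, gave 29, 237 and 495 UMIs in order of stage, or 18.3 CPM (12.3 to 26.3), 73.6 CPM (64.5 to 83.5) and 99.6 CPM (91.1 to 109). No interval overlapped another. The steps were 4.01-fold (2.72 to 6.13) and then 1.35-fold (1.16 to 1.59). With the cluster mix held fixed the latter step was 0.10 on the log2 scale in place of 0.43. Myeloid-like cells hold the most Cd44 of any class, with 83.4, 334 and 436 CPM. The 9 myeloid markers summed to 5.05 CPM in the E13.5 lineage, where 6 of them were at 0 (C1qa, Fcer1g, Csf1r, Lyz2, Cd68 and Ptprc), and to 35.1 and 30.8 CPM later, against 4838 and 6838 CPM in myeloid-like cells at those stages. Their part in the result was not tested.

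Cd44 was highest after the myeloid-like class in osteogenic-like cells, with 99.9 CPM at E14.5 and 160 CPM at E15.5. Osteogenic-like cells exceeded mesenchymal-like cells by 1.52-fold (1.16 to 1.98) and 1.88-fold (1.55 to 2.27). Chondrogenic-like cells were lowest in the lineage, with 1, 1 and 2 UMIs. At E15.5 the mesenchymal-like level of 85.2 CPM and the epithelial-like level of 72.9 CPM were not distinguishable.

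Fn1, the fibronectin gene, gave 704, 1140 and 1807 UMIs in the lineage. It stood at 445 CPM (413 to 479) at E13.5, 354 CPM (334 to 375) at E14.5 and 364 CPM (347 to 381) at E15.5. E13.5 was highest, and the 2 later stages overlapped. The step to E14.5 was 0.795-fold (0.723 to 0.875), short of the 1.5-fold limit. With the cluster mix held fixed the log2 ratio was 0.31 in place of -0.33. Chondrogenic-like cells numbered 111, 63 and 32, and in each library they had the highest Fn1 of the classes of at least 20 cells, with 595, 1296 and 962 CPM. Chondrogenic-like cells exceeded mesenchymal-like cells by 1.50-fold (1.25 to 1.79), 4.21-fold (3.58 to 4.93) and 2.61-fold (2.14 to 3.17). The 18 osteogenic-like cells at E13.5 gave 46 UMIs (706 CPM). Mesenchymal-like and osteogenic-like cells, at 308 and 297 CPM, were not distinguishable at E14.5, and at E15.5 osteogenic-like cells stood at 0.764-fold (0.672 to 0.867) of mesenchymal-like cells.

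Tnc, which encodes tenascin-C, gave 121, 766 and 892 UMIs in the lineage. Its level was 76.4 CPM (63.4 to 91.3) at E13.5, 238 CPM (221 to 255) at E14.5 and 180 CPM (168 to 192) at E15.5. The middle stage was highest, and no interval overlapped another. The step to E14.5 was 3.11-fold (2.56 to 3.80), and E15.5 was 0.755-fold of E14.5 (0.685 to 0.833). With the cluster mix held fixed the first step was 0.96 on the log2 scale in place of 1.62, and the second was -0.08 in place of -0.40. Cluster 9, led by Pax3 and Ltbp2, had the highest level of any lineage cluster at E14.5 (434 CPM) and stood at 232 CPM at E15.5. Osteogenic-like cells had 329 and 258 CPM, 1.59-fold (1.37 to 1.84) and 1.60-fold (1.38 to 1.84) the mesenchymal-like level. Glial-like cells, with 315 and 269 CPM, were not distinguishable from osteogenic-like cells. Chondrogenic-like cells were low throughout (21.4, 43.6 and 43.0 CPM).

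Postn, which encodes periostin, gave 460, 3043 and 6373 UMIs in the lineage. Its level was 291 CPM (265 to 318) at E13.5, 944 CPM (911 to 979) at E14.5 and 1283 CPM (1252 to 1315) at E15.5, each above the one before with no overlap. The steps were 3.25-fold (2.95 to 3.59) and 1.36-fold (1.30 to 1.42). All 8 lineage clusters had a positive log2 ratio for the second step, though in the osteogenic-like cluster it was 0.01 (659 and 662 CPM). In mesenchymal-like cells Postn reached 1144 and 1471 CPM, and osteogenic-like cells stood at 0.576-fold (0.528 to 0.628) and 0.450-fold (0.416 to 0.487) of that. Chondrogenic-like cells had 218 CPM at E14.5 and 834 CPM at E15.5, on 35 and 97 UMIs. Glial-like cells, the Schwann-type cells of nerves, had 362, 1346 and 1077 CPM, the highest level at E13.5 and E14.5 among classes of at least 20 cells. At E13.5 they were not distinguishable from mesenchymal-like cells.

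**Figure D2:**
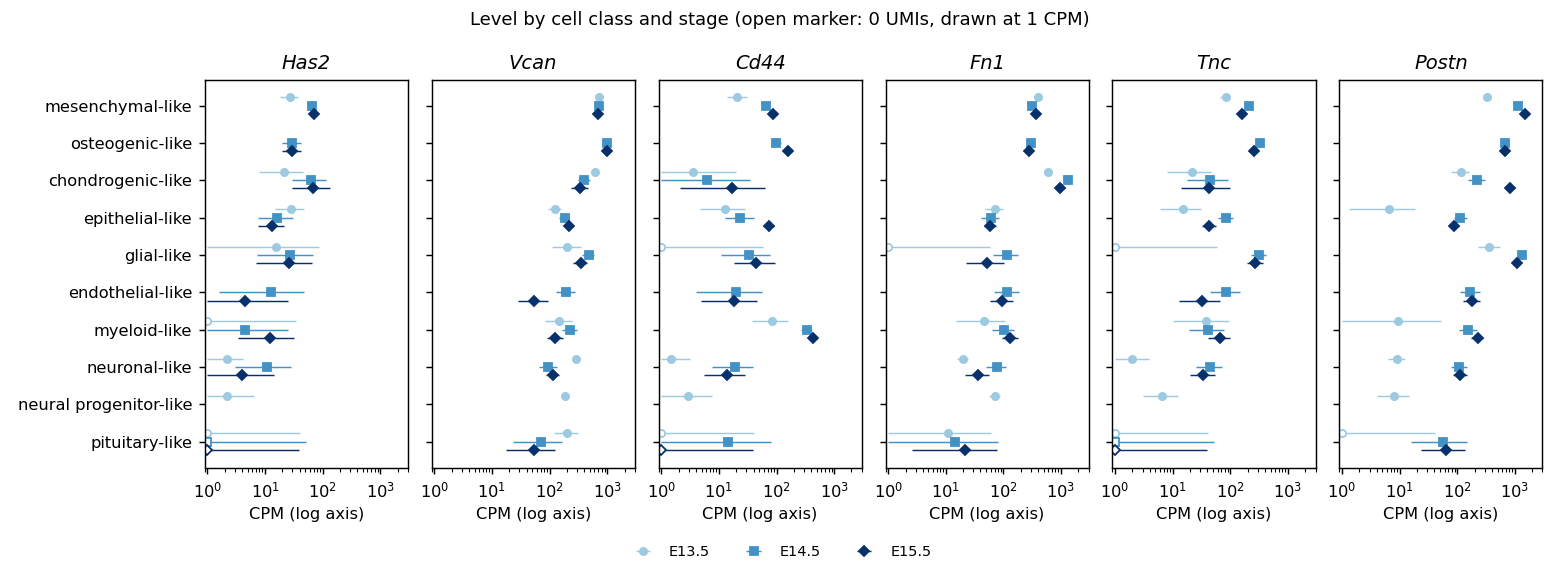
Level of 6 members in CPM (horizontal axis, log scale) in each cell class of at least 20 cells, by stage. Lines are 95% Poisson intervals and open markers are counts of 0. Fn1 is highest in chondrogenic-like cells, Cd44 in myeloid-like cells, and Postn in mesenchymal-like and glial-like cells.

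The stage steps were also compared inside each lineage cluster of at least 20 cells. Between E13.5 and E14.5, 4 clusters could be compared, namely cluster 0 (the shallowest), cluster 2, the chondrogenic-like cluster 12 and the cycling cluster 16 led by Anln and Hmmr. Has2, Cd44, Tnc and Postn had positive log2 ratios in all 4. For Postn the range was 0.77 to 1.64 and for Tnc 0.61 to 1.28. The Has2 range of 0.15 to 1.50 rests on 6 to 18 UMIs per cluster and stage. Cd44 rests on fewer: its log2 ratios were 0.72 in cluster 2 (19 and 11 UMIs), 1.77 in cluster 16 (5 and 22 UMIs) and 0.66 in cluster 12 (1 UMI at each stage), and cluster 0 had 0 UMIs at E13.5 and 20 at E14.5. Between E14.5 and E15.5, with 8 clusters, Cd44 was positive in 6, Has2 in 3 and Tnc in 2. The cluster plot shows that Has2, Tnc and Fn1 each had their highest value in a different cluster at E14.5.

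**Figure D3:**
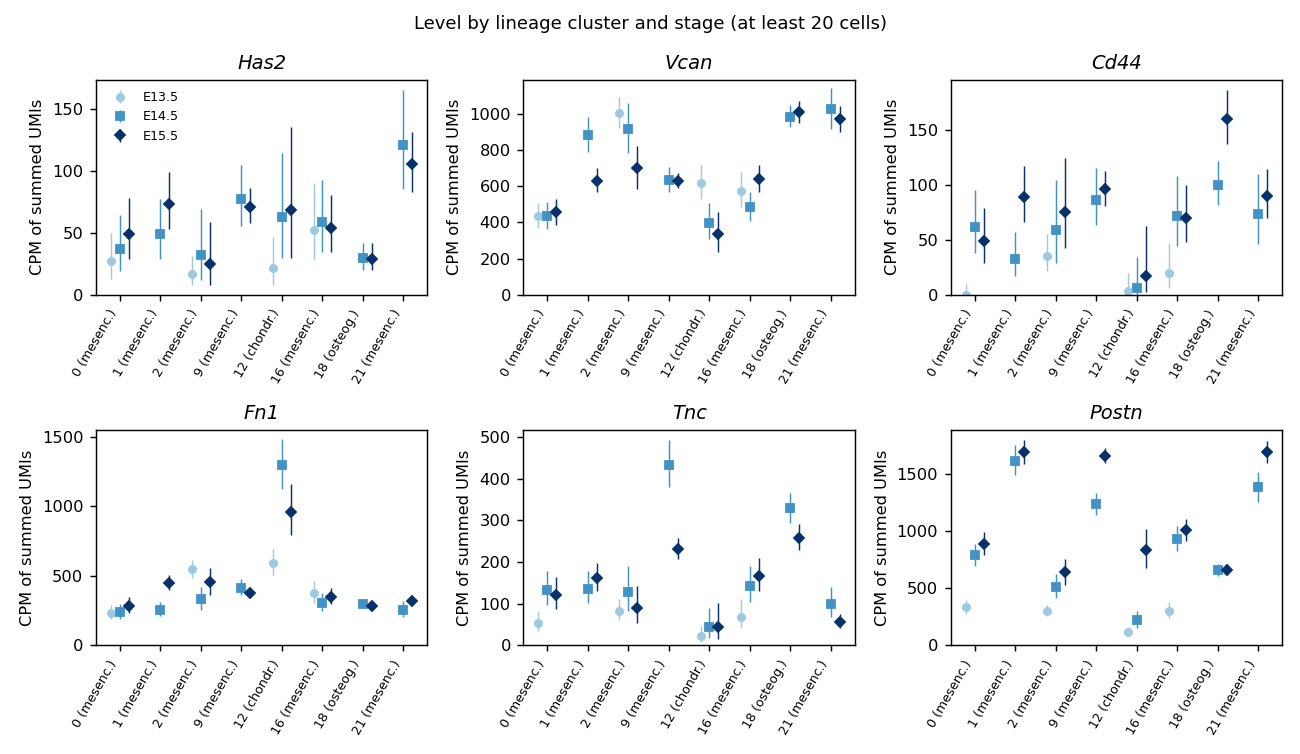
Level of 6 members in CPM (vertical axis, linear, from 0) in each lineage cluster by stage, with 95% Poisson intervals; clusters of under 20 cells at a stage are left out. At E14.5 the highest cluster is 21 for Has2 and Vcan, 18 for Cd44, 12 for Fn1, 9 for Tnc and 1 for Postn.

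Compared with epithelial-like cells (145, 166 and 329 cells), the lineage had at least 2-fold more Vcan, Fn1, Tnc and Postn in every library. These are 4 of the 8 members, and 6.97% of 11988 genes met this rule. Has1 and Has3 were below 5 CPM and could not be called. No other member was lower by the same rule, which 5.51% of genes met. Has3 had 0.621 CPM in the lineage against 5.45 CPM in epithelial-like cells at E14.5 (2 and 3 UMIs). At E15.5 it had 0.403 against 4.19 CPM (2 and 5 UMIs). Only Fn1 and Postn kept the call of 2-fold more with no doublets left out or with at least 1000 genes per cell. At E14.5 the Vcan ratio of CPM + 1 was then 1.70-fold and 3.44-fold and that of Tnc 1.59-fold and 1.30-fold, and at E13.5 Vcan stood at 2.33-fold and 1.71-fold. With no doublets left out, the cluster led by Bpifa1 was unnamed, and with at least 1000 genes its counterpart was named pituitary-like, so both lay outside the epithelial-like class. With cells classed one by one, 4 members met the rule, but Tnc did not (1.87-fold at E14.5) and Cd44 did (2.05-fold at E15.5, and against 0 epithelial-like UMIs at E13.5). The Fn1 contrast was 6.30-fold (4.44 to 9.22), 5.90-fold (4.18 to 8.62) and 6.20-fold (4.88 to 7.99). On the scale of CPM + 1 it ran from 3.80-fold to 6.47-fold over the libraries with no doublets left out, and from 7.55-fold to 10.8-fold with cells classed one by one by their marker counts. The Vcan contrast was 5.77-fold, 4.30-fold and 3.45-fold. Has2 was not separated at E13.5, with 24.6 CPM in the lineage and 27.8 CPM in epithelial-like cells on 13 UMIs, and was 3.28-fold (1.69 to 7.30) and 4.65-fold (2.82 to 8.24) higher in the lineage later. The Cd44 contrast was 1.43-fold (0.582 to 4.20), 3.11-fold (1.79 to 5.94) and 1.37-fold (1.09 to 1.74). On the scale of CPM + 1 its direction turned at E13.5 and E15.5 with no doublets left out (0.277-fold, 1.06-fold and 0.744-fold) and with at least 1000 genes per cell (0.431-fold, 1.80-fold and 0.931-fold).

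Within epithelial-like cells, Cd44, Tnc and Postn were called higher and Has2 lower between E13.5 and E14.5, where 28.0% of 11801 genes were called higher and 17.0% lower. From E14.5 to E15.5 Cd44 was higher and Tnc lower (16.0% and 13.7% of genes). From E13.5 to E15.5 Vcan, Cd44, Tnc and Postn were higher and Has2 lower (29.4% and 17.3%). The class sits in different clusters over the stages: cluster 14 held 47, 57 and 181 of its cells and cluster 15, led by Bpifa1, held 98, 98 and 132. Vcan stood at 291, 368 and 355 CPM within cluster 14 and at 43.8, 103 and 83.5 CPM within cluster 15, and Cd44 at 40.6, 63.7 and 134 CPM and at 0, 11.5 and 12.7 CPM. The part of the cluster mix in the calls was not tested. Several of these calls depend on which cells form the class. With at least 1000 genes per cell the Vcan log2 ratio from E13.5 to E15.5 was -0.54 in place of 0.82, and with no doublets left out it was 0.21. The first Cd44 step was -0.13 and -0.037 in the same settings, in place of 0.83. In the first of these settings Has2 was -0.29 at the first step and -0.41 from E13.5 to E15.5, short of the limit. Cd44 gave 6, 13 and 87 UMIs, or 12.8, 23.6 and 72.9 CPM. Its step to E14.5 had an interval of 0.652-fold to 5.90-fold, which includes no change, and its step to E15.5 one of 1.71-fold to 6.03-fold. Has2 gave 13, 9 and 16 UMIs, and its intervals of 0.222-fold to 1.49-fold for the step to E14.5 and 0.217-fold to 1.09-fold from E13.5 to E15.5 both include no change. Postn gave 3, 62 and 106 UMIs (6.42, 113 and 88.9 CPM).

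Neuronal-like cells, taken as a class that should lack periostin, served as a reference for background, which was not measured directly. Their clusters changed over the stages, with cluster 13 holding 39, 120 and 146 of 1765, 131 and 170 cells. The part of that change in their levels was not tested. In neuronal-like cells Postn stood at 8.98, 109 and 113 CPM, not distinguishable from the epithelial-like level at any stage. Tnc in neuronal-like cells was 1.94, 43.6 and 33.8 CPM, and epithelial-like Tnc exceeded it by 7.72-fold (2.38 to 24.4) at E13.5, on 7 UMIs, and by 1.92-fold (1.07 to 3.63) at E14.5, and was not distinguishable at E15.5. The lineage's share of cells moved with these values, from 18.4% to 68.9% and 68.3%, and its part in the epithelial steps of Postn and Tnc was not tested. Epithelial-like Cd44 stood at 8.82-fold (2.36 to 33.0), 1.24-fold (0.459 to 3.67) and 5.24-fold (2.44 to 13.4) of the neuronal-like level in order of stage. Epithelial-like Vcan stood at 0.421-fold (0.317 to 0.550), 1.91-fold (1.28 to 2.89) and 1.91-fold (1.43 to 2.59) of it, and the neuronal-like Vcan of E13.5 is too high to serve as a background.

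The share of cells with a UMI gave a similar order for the 4 changing genes. After each cell was thinned to 1500 UMIs, which leaves out 258, 486 and 659 lineage cells, Has2 was seen in 3.53%, 8.79% and 8.83% of lineage cells in order of stage. Cd44 was seen in 2.27%, 8.51% and 12.8%, Tnc in 9.32%, 21.6% and 18.7%, and Postn in 28.5%, 58.0% and 68.5%. Vcan was seen in 55.4%, 54.5% and 54.7%, and Fn1 in 32.2%, 35.0% and 36.1%. The Fn1 share goes against its CPM, so no order is read from it. Without thinning, Has2 was seen in 5.65%, 11.1% and 13.0%, Cd44 in 3.21%, 13.6% and 17.6%, and Postn in 31.8%, 63.6% and 72.1%. In thinned neuronal-like cells (680, 43 and 59 left out) the Has2 share was 0.184%, 1.14% and 0.901%, and the Postn share 1.20%, 15.9% and 7.21%. The neuronal-like level of Cd44 was 1.46, 19.1 and 13.9 CPM and that of Tnc 1.94, 43.6 and 33.8 CPM. The part of background in the lineage shares was not tested. Median UMIs per cell were 1858, 1812 and 1997 in the lineage and 1842, 2014 and 2177 in neuronal-like cells.

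In each library, thinned lineage cells with a Has2, Cd44 or Tnc UMI were compared with the rest for every other member. Cells with a Tnc UMI had 2.01-fold more Cd44 (1.19 to 3.31) at E14.5, with 155 cells, and 1.79-fold more (1.26 to 2.52) at E15.5, with 205 cells. At E13.5 the ratio of 3.65-fold rests on 3 Cd44 UMIs and has an interval of 0.623 to 15.2. Has2-positive cells showed no separable Cd44 level at any stage, with 1.09-fold (0.605 to 1.82) at E15.5. Both Tnc and Cd44 were high in the osteogenic-like class, and its part in the pairing was not tested. Tnc-positive cells had Vcan at 1.25-fold (1.07 to 1.46) at E14.5 but at 0.838-fold (0.717 to 0.974) at E15.5. Cd44-positive cells had Vcan at 1.30-fold (1.11 to 1.51) at E15.5. Some further pairs, not listed, also had intervals clear of 1.

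Lineage cells were also gated by region, with a UMI of the anterior palate genes Shox2, Msx1 or Inhba and none of the posterior genes Meox2, Tbx22 or Barx1, or the reverse (90 against 138, 346 against 178 and 641 against 202 cells). Cd44 was the 1 member at least 1.5-fold higher in anterior-gated cells in every library, a rule that 1.88% of 11443 genes met, and 0 members were lower (0.865% of genes). Its level was 27.5 against 10.0 CPM, 95 against 45.7 CPM and 108 against 62.1 CPM. The ratio was 2.08-fold (1.29 to 3.49) at E14.5 and 1.73-fold (1.21 to 2.55) at E15.5, and 2.74-fold (0.650 to 13.2) on 10 UMIs at E13.5. With at least 2 UMIs of a region list required, no member met the rule. Tnc was 1.31-fold (0.734 to 2.32), 1.70-fold (1.31 to 2.22) and 1.49-fold (1.16 to 1.94) higher in anterior-gated cells. Postn was nearly even at E14.5 (1122 against 1079 CPM) and at 0.862-fold (0.799 to 0.931) at E15.5. The Has2 intervals included 1 in each library.

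Pathway genes were taken from 6 lists and compared from E13.5 to E15.5 in the lineage. Of the genes that supply hyaluronan precursors, 0 of 7 were called either way. Gfpt2, which starts the hexosamine route, stood at 38.5, 24.2 and 43.3 CPM, so it was called lower to E14.5 (0.628-fold, 0.444 to 0.893) and higher from there to E15.5 (1.79-fold, 1.37 to 2.35). Its log2 ratio over both steps was 0.16, that of Ugp2 0.15, of Pgm3 -0.43 and of Gnpnat1 -0.56. Of 7 measured genes of hyaluronan breakdown, Cemip, which promotes depolymerisation outside the cell, was lower (18.3 to 10.9 CPM, -0.70). It is a leading gene of cluster 2, which held 218 of 655 lineage cells at E13.5 and 90 of 1757 at E15.5, and the part of that cluster was not tested. The hyaluronidase Hyal2 (-0.58) and the lysosomal Hexa (0.57) were within the limit.

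Among 18 genes whose products bind hyaluronan or versican, 8 were measured and 10 were below 5 CPM. Hapln1, the link protein that locks proteoglycans to hyaluronan, was 112, 89.4 and 35.8 CPM (-1.62), and Acan, the cartilage proteoglycan, was 68.2, 102 and 30.4 CPM (-1.14). Both mark chondrogenic-like cells, which were 111, 63 and 32 cells, and the part of that class in these values was not tested. Fbln2, a versican-binding fibulin, was higher (0.97), and Itih5 was within the limit (0.56).

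Of the 6 ADAMTS proteases that cleave versican, 4 were higher and 0 lower. Adamts15 gave 5, 22 and 54 UMIs (1.51) and Adamts1 gave 48, 153 and 290 UMIs (0.92). Adamts5 and Adamts4 were also called, the latter on 10, 22 and 54 UMIs with a fold interval that includes 1. Adamts9 (0.26) and Adamts20 (0.14) were within the limit.

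Receptors of adhesive matrix were higher for 6 of 13 measured genes, and 0 were lower. Itga8, the alpha chain of an integrin that binds tenascin-C and fibronectin, stood at 56.2, 187 and 270 CPM (2.24). Itgav, the alpha chain of integrins that bind periostin, stood at 48.0, 81.3 and 106 CPM (1.12). The syndecan Sdc3 (-0.34) and Itgb8 (-0.25) had the smallest ratios. Among other adhesive and matricellular genes, 8 of 12 measured were higher and 0 lower. Tnn, which encodes tenascin-W, gave 5, 191 and 369 UMIs (4.18), and the elastic fibre gene Eln stood at 54.3, 284 and 410 CPM (2.89). Tgfbi (-0.34) and Thbs1 (-0.15) were within the limit. The background for these counts is the 21.3% higher and 16.3% lower given above.

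**Figure D4:**
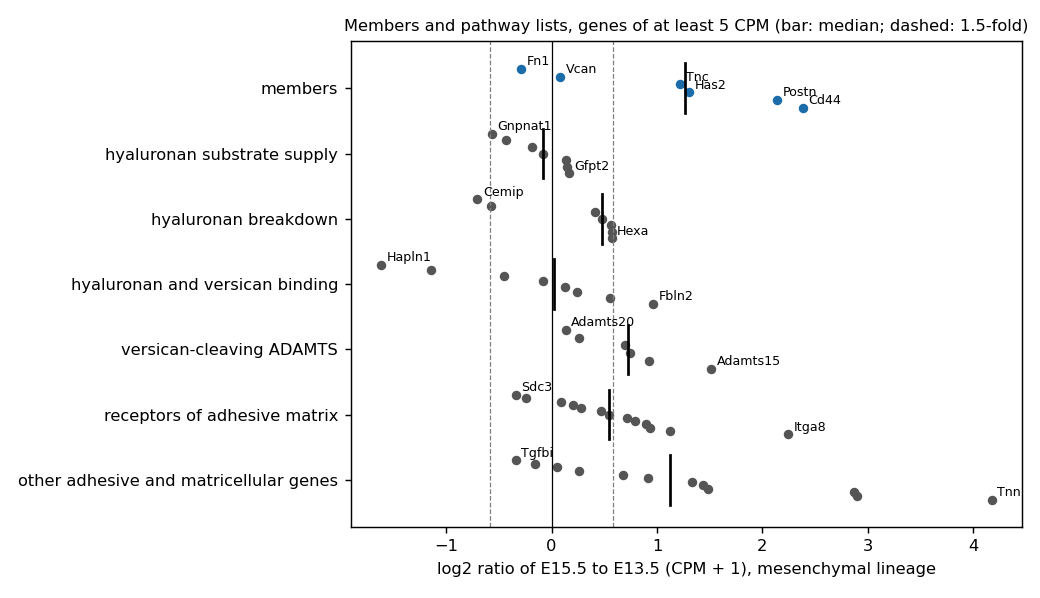
Log2 ratio between the E15.5 and E13.5 libraries in the mesenchymal lineage (horizontal axis) for the measured members and the genes of 6 pathway lists with a mean of at least 5 CPM, 1 point per gene, with the list's median as a bar and dashed lines at 1.5-fold. Precursor supply lies around 0, and Tnn, at 4.18, is the farthest point.

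The genes whose levels followed each member most closely were found by Pearson r over 28 class-by-stage sums and 13538 genes, as a description, since these sums share libraries. Postn was closest to the fibrillar collagen genes Col3a1 (0.94) and Col1a2 (0.90), and to Fbln2 (0.90). Tnc was closest to Col6a1 (0.85) and Col6a2 (0.85), which encode chains of beaded-filament collagen, and Has2 to Col5a1 (0.88), Crtap (0.87) and Rarg (0.87). Fn1 was closest to Kif26b, Mmp2 and Islr (0.87 each), Vcan to Pth1r (0.83), Foxd1 (0.83) and Lpar1 (0.82), and Cd44 to Nfkb1 (0.85), Maf (0.84) and Nupr1 (0.83). Between members r ran from 0.27 for Has2 with Cd44 to 0.77 for Has2 with Fn1.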

How the data were processed

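The deposited values are raw counts of UMIs, by gene and barcode, which the authors made with Cell Ranger 6.1.2 on mm10, per the submitters' processing notes and the file headers. Counts were used as deposited. Barcodes with under 500 genes (544, 304 and 473) or over 20% mitochondrial UMIs (0) were left out. Scrublet (scanpy 1.11.5) marked 0 doublets by its own threshold, so top-scoring barcodes were removed at 0.8% per 1000 barcodes (125, 30 and 66). Cells were clustered on 2000 variable genes, 30 components and 15 neighbours with Leiden at resolution 1 (igraph 0.11.9). A cluster took the name of the marker list with the largest share of genes counted, with at least 3 counted. Among the lineage classes, a class with at least 3 markers among the cluster's 10 leading genes took precedence. A cluster was left unnamed if those genes held more markers of another class, though lineage classes did not block each other. Shallow clusters with no marker among those genes were also left unnamed. This order was settled after the clusters were seen. UMIs were summed per class and library and scaled to CPM. Intervals are exact Poisson for levels, exact conditional binomial for folds and Clopper-Pearson for shares, at 95%. A count of 0 allows 3 counts. Ratios use CPM + 1. Fold intervals were checked on Poisson counts drawn at the whole-library totals of E14.5 and E15.5. Such counts hold no variation between embryos, libraries or cells, so the check bears on counting error alone. The GENCODE M21 table held 32158 of 32285 gene IDs (99.6%). Named genes are the 8 members, the 2 largest and 2 smallest ratios between E13.5 and E15.5 in each pathway list, and the 3 closest genes by r of log2(CPM + 10) for members with at least 200 UMIs. A gene that this rule names is not reported here. Members and lists were chosen with earlier results of these data known. Alternatives were other filters, clusterings, gates, weights and added CPM, and 4 more were chosen after seeing the data.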

Additional observations from a re-analysis of the deposited data

Results flagged for a closer look

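Vcan had log2 ratios of opposite sign in different classes. In epithelial-like cells its log2 ratio between E13.5 and E15.5 was 0.82, and in neuronal-like cells it was -1.34. With at least 1000 genes per cell the epithelial-like value was -0.54, the same sign as in neuronal-like cells. In glial-like cells its step to E14.5 was 1.21 on the log2 scale, and in neuronal-like cells it was -1.59. The difference between classes was not tested, since there is 1 library per stage. Among epithelial-like cells, cluster 14, led by Krtdap and Krt13, held 47, 57 and 181 cells, and its Vcan was 291 CPM at E13.5 and 355 CPM at E15.5; cluster 15, led by Bpifa1, held 98, 98 and 132 cells with 43.8 and 83.5 CPM at those stages. Most neuronal-like cells at E13.5 fall in clusters nearly absent later, while those at E14.5 and E15.5 fall mostly in cluster 13, led by Fstl5 and Gng13, with 39, 120 and 146 cells.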

How the results depend on the processing

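No paired analysis was possible because each stage had 1 library. In the lineage no called value changed direction under any alternative run. In epithelial-like cells Cd44 from E13.5 to E14.5 turned to -0.037 on the log2 scale with no doublets left out and to -0.13 when cells needed 1000 genes, and Vcan from E13.5 to E15.5 turned to -0.54 under the latter. With CPM + 10, 2 members in place of 4 passed 1.5-fold there from E13.5 to E14.5. Has2, Cd44, Tnc and Postn passed 1.5-fold in 16 of 16 settings from E13.5 to E14.5 and from E13.5 to E15.5. Between E13.5 and E15.5 their lowest log2 ratios, with the cluster mix held fixed, were 0.73, 1.78, 0.88 and 1.69, and over all kept cells, where neural cells fill the E13.5 library, they were 2.32, 3.70, 2.56 and 3.70. Over all kept cells Fn1 stood at 1.16 and Vcan at 0.63 in the same comparison, both past 1.5-fold. The members at least 2-fold higher in the lineage than in epithelial-like cells were 2 (Fn1 and Postn) with no doublets left out and 2, the same genes, with at least 1000 genes per cell, in place of 4. With cells classed one by one, 4 met this rule, with Cd44 in place of Tnc. With no filter on low genes, 1 member (Has1) passed 1.5-fold from E14.5 to E15.5 in place of 0, and from E13.5 to E14.5 the count was 5 higher and 1 lower in place of 4 and 0, through Has3 on 0 and 2 UMIs and Has1 on 6 and 1. With at least 2 UMIs of a region list, 0 members passed in place of 1. Of the log2 ratios, 552 stayed within their counting interval, 69 moved beyond it and 3 reversed. Of the shares of cells with a UMI, 21 stayed within their interval and 27 moved when cells were thinned to 1000 UMIs or not thinned.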

Other observations

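The 2 larger epithelial-like clusters differed in these genes. Cluster 14, the stratified-type epithelium led by Krtdap and Krt13, had more Vcan than cluster 15, led by Bpifa1, Aox2, Sult1e1 and Scgb1c1. Vcan stood at 291 against 43.8 CPM at E13.5, 368 against 103 CPM at E14.5 and 355 against 83.5 CPM at E15.5. The ratios were 6.63-fold (3.56 to 13.1), 3.56-fold (2.29 to 5.61) and 4.25-fold (3.07 to 6.00). Cd44 gave 6, 9 and 72 UMIs in cluster 14 and 0, 4 and 7 in cluster 15, and its ratio at E15.5 was 10.5-fold (4.86 to 27.1). Tnc was 3.70-fold (1.97 to 7.14) and 2.49-fold (1.30 to 5.02) higher in cluster 14 at E14.5 and E15.5. At E13.5 it gave 0 UMIs in cluster 14 and 7 in cluster 15, with an interval of 0 to 1.50. Postn was even between them, at 91.1 and 88.9 CPM at E15.5.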
